A study of Mus musculus with 24 samples.

Results

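The hippocampus libraries of the series compare mice whose olfactory bulbs had been surgically removed (bulbectomy) with mice that had a sham operation. They were chosen by the tissue and treatment labels of each library and number 9 of 24, with 4 bulbectomy libraries and 5 sham libraries. The other libraries come from cortex and cerebellum under the same 2 treatments and serve here only for tests of whether a response differed between regions. Both hippocampus groups came from wild-type mice, and the labels name no strain, age, sex or time since surgery. The design asks how gene expression in a brain region that was not operated on changes after the bulbs are lost, and the series title relates the model to Alzheimer's disease and depression.

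The olfactory bulb sends its output through the piriform and entorhinal cortex, and the entorhinal cortex supplies the main cortical input of the hippocampus. Granule cells of the dentate gyrus pass this input to the pyramidal cells of CA3 and CA1. Bulbectomy in rodents is used as a model of depression-like behaviour, with altered stress hormone signalling and memory. The hippocampus lies close to the striatum, to the thalamus with its habenula, and to the ventricles with their ependymal lining and choroid plexus.

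Levels are given in CPM, a gene's reads scaled to a common library size, and a log2 fold change is bulbectomy over sham, given with its standard error. Sham 1 held 3255661 reads assigned to genes, sham 4 138963332 and the other 7 libraries 8145624 to 9608811, so 3 reads of a gene correspond to 0.921 CPM, 0.022 CPM and 0.312 to 0.368 CPM. The correlation of log CPM across genes was 0.978 to 0.993 between libraries of a group. Nothing in the labels says that the libraries of a group came from separate animals, so the p-values measure the spread between these libraries.

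Marker genes set 3 of the libraries apart. Genes of striatal medium spiny neurons, the projection neurons of the striatum, reached a mean log2 CPM of 7.01 and 7.34 in the first 2 sham libraries, while sham 3 to 5 lay at 3.56 to 4.02 and the bulbectomy libraries at 4.02 to 4.30. Drd1, the dopamine receptor of one class of these neurons, measured 42.8 and 41.8 CPM in sham 1 and sham 2, and 2.77 to 5.46 CPM in the other 7 libraries. Sham 2 was also the lowest library for dentate granule cell genes, at 2.82 against 3.63 to 4.19, and for CA1 to CA3 pyramidal cell genes, at 5.46 against 5.94 to 6.36. Prox1, the transcription factor of dentate granule cells, measured 3.35 CPM in sham 2 and 11.5 to 33.4 CPM in the others. Bulbectomy 3 was the highest library for genes induced by interferon, at 5.47 against 3.10 to 4.44. Every comparison below was therefore also made without sham 1 and sham 2, and immune genes without bulbectomy 3. In bulk tissue, fewer cells of a type and less RNA per cell cannot be told apart.

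**Figure D1:**
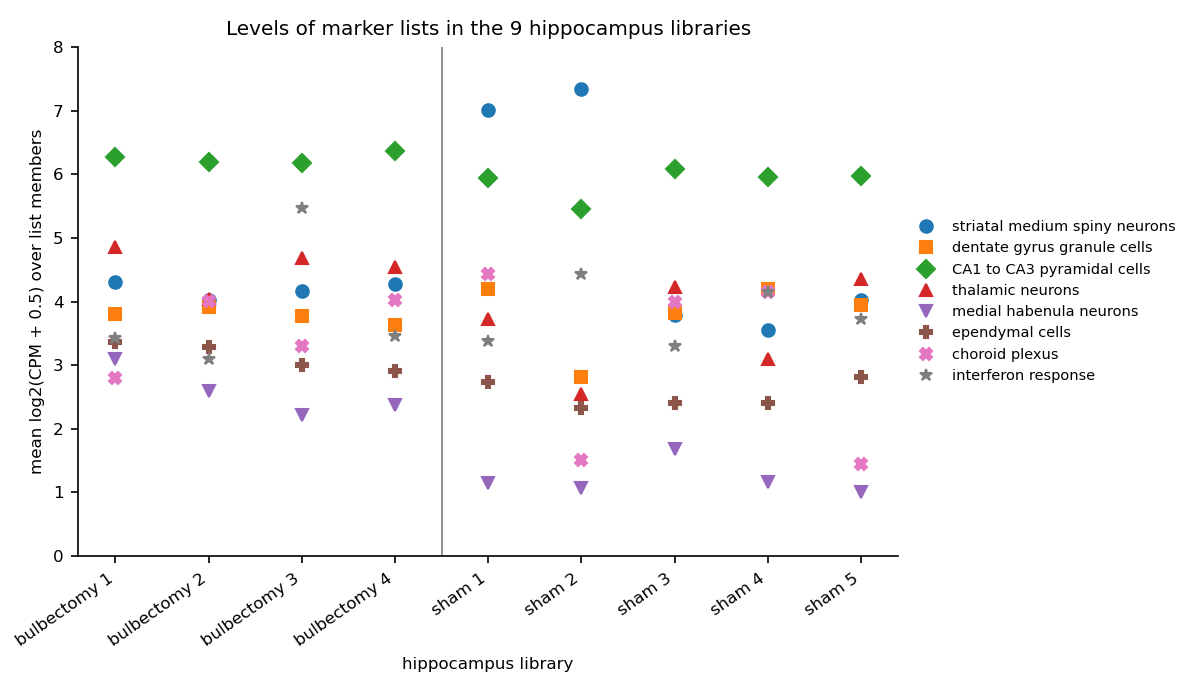
Mean log2(CPM + 0.5) over the members of 8 marker lists (y axis) in each of the 9 hippocampus libraries (x axis), 1 symbol per list. Striatal genes stand at 7.01 and 7.34 in sham 1 and sham 2 and at 3.56 to 4.30 elsewhere. Each list is averaged over its members that passed the filter on low counts, which for habenula genes are 9 of 15.

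After bulbectomy 77 of 13985 genes tested rose (0.551%) and 140 fell (1.0%), together 217 genes or 1.55% (edgeR's quasi-likelihood test, adjusted p under 0.05). Of the genes that rose, 71 were protein coding and 45 passed a 2-fold change, and of those that fell, 136 and 99. The median size of the change was 1.11 on the log2 scale among genes that rose and 1.22 among genes that fell. Bulbectomy and sham values did not overlap for 1373 genes (9.82% of those tested), 694 higher and 679 lower, and these include 74 of the 77 genes that rose and 136 of the 140 that fell. Exon length, summed over the merged exons of all transcripts of a gene, was greater among genes that fell. Its median was 7308 bases, against 4733.5 for those that rose and 4421.5 for all genes tested. After correction for a trend with exon length and GC content, 232 genes were called higher and 241 lower, a more even split.

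Without sham 1 and sham 2, 118 of 14013 genes were called higher (0.842%) and 230 lower (1.64%). Of the calls made with all 9 libraries, 55 of 77 and 120 of 140 were made here too, which is 71.4% and 85.7% of those calls. They are 46.6% and 52.2% of the calls made without sham 1 and sham 2. Leaving out 1 library at a time gave 15 to 138 genes called higher and 15 to 339 called lower. Without sham 2 the counts were 138 and 339, without sham 4 they were 35 and 37, and without bulbectomy 2 they were 15 and 15. The calls of 12 genes that rose and 14 that fell were made in all 9 of these fits.

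**Figure D2:**
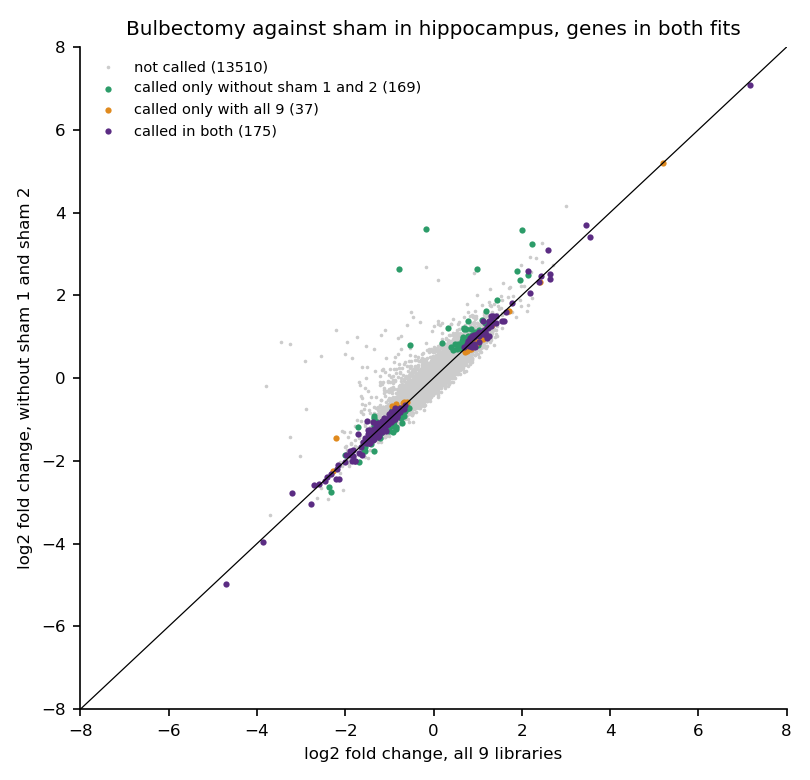
Log2 fold change of the 13891 genes tested in both fits, with all 9 libraries (x axis) and without sham 1 and sham 2 (y axis), 1 point per gene, coloured by call, with the line of equal values. The 175 genes called in both lie along the line, 169 were called only without the 2 libraries and 37 only with all 9.

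Regulators of cell volume and the cytoskeleton were among the genes of smallest p. Lrrc8a encodes the obligatory subunit of the volume-regulated anion channel, which opens when cells swell. It measured 45.7, 47.9, 49.2 and 55.2 CPM in bulbectomy 1 to 4 and 8.27, 9.59, 9.01, 12.2 and 14.4 CPM in sham 1 to 5. Every bulbectomy library lay far above every sham library, and the log2 fold change was 2.19 ± 0.19 (edgeR adjusted p = 8.75e-05). Exons of Lrrc8a (chromosome 2, 30237715 to 30263790) share 66.2% of their bases with another gene on the same strand, so its reads are uncertain. Of the 4 LRRC8 subunits measured, Lrrc8a was the one called (25%, against 1.55% of all genes tested).

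Dpysl2, which encodes CRMP2, a protein that binds tubulin and carries semaphorin signals in growing axons, measured 354, 467, 298 and 298 CPM after bulbectomy. In sham 1 to 5 it measured 47.3, 79.9, 57.5, 67.9 and 87.5 CPM, so the groups were far apart (2.38 ± 0.21, edgeR adjusted p = 8.75e-05). All 5 measured members of its family and partners lay higher, with Dpysl2 alone called (20%, against 1.55% of all genes tested). Actb, the cytoplasmic beta-actin often used as a reference gene, measured 1860, 2320, 2990 and 2110 CPM against 919, 1250, 1130, 1020 and 1100 CPM. Its groups did not overlap and it rose by 1.1 ± 0.18 (edgeR adjusted p = 0.0115). Sh3bgrl3, a small thioredoxin-like protein, also rose (1.11 ± 0.19, edgeR adjusted p = 0.0151), with exons that overlap a gene on the opposite strand over 22.9% of their bases.

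**Figure D3:**
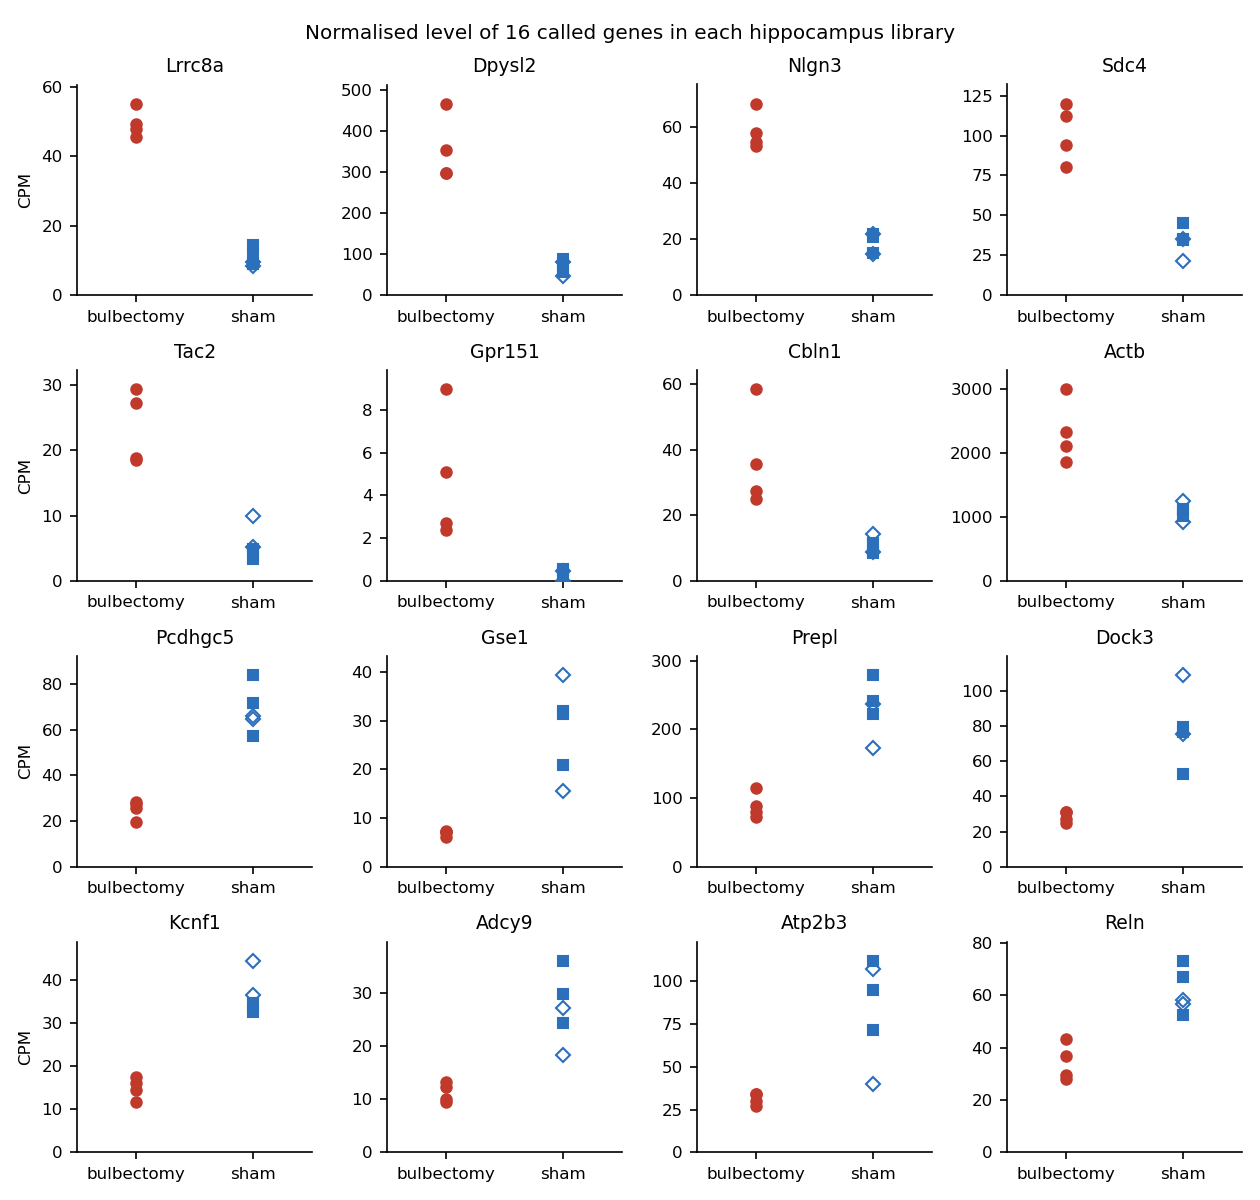
CPM (y axis, from 0) of 16 genes in each library, 8 called higher and 8 called lower, 1 panel per gene. Red circles are bulbectomy libraries, filled blue squares sham 3 to 5 and open blue diamonds sham 1 and sham 2, and in each panel no bulbectomy value falls within the sham values.

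Synaptic adhesion proteins moved in both directions. Nlgn3, a postsynaptic neuroligin that binds neurexins, measured 53.4, 68.5, 58.1 and 54.9 CPM after bulbectomy and 14.8, 21.7, 15.1, 21.7 and 20.7 CPM after sham. Every bulbectomy library exceeded every sham library (1.63 ± 0.18, edgeR adjusted p = 0.000887), though 41.2% of its exon bases are shared with another gene on the same strand. Cbln1, a secreted organiser that bridges neurexins and delta glutamate receptors, measured 58.3, 27.5, 35.5 and 24.9 CPM against 14.3, 8.78, 11.6, 8.65 and 11.2 CPM (1.77 ± 0.26, edgeR adjusted p = 0.00655). Bulbectomy 1 was the highest and again no values overlapped. Ptprf, the receptor phosphatase LAR, fell by 0.61 on the log2 scale (edgeR adjusted p = 0.0451, 0.0561 without sham 1 and sham 2). Of 31 synaptic adhesion genes measured, edgeR called 2 higher and 1 lower (9.68%, against 1.55% of all genes tested), and DESeq2 6 higher and 3 lower. The edgeR calls without sham 1 and sham 2 were 3 higher and 1 lower.

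Of the clustered protocadherins 12 fell. These cadherins are made from 3 neighbouring gene clusters on chromosome 18, and each neuron uses a few of them as a surface code for recognising its own branches. Of the 57 in the files, 42 passed the filter on low counts, and of these 41 lay lower and 12 were called lower by edgeR (28.6%, against 1.0% of all genes tested), with a median log2 fold change of -1.23. A gene near the floor after bulbectomy can pass the filter through its sham values, so this share and median are a description and no measure of the whole family. Without sham 1 and sham 2, Pcdhac1 and Pcdhgb8 (chosen after their values were seen) no longer passed, and of the other 40 members 10 were called lower with a median of -0.99. Over all 58 identifiers of the family, with no filter (Pcdha11 has 2), the mean log2 CPM by library was 0.79 to 0.88 after bulbectomy and 1.41 to 2.02 after sham, with no overlap. The gamma cluster had 21 of 21 members lower and 10 called, the alpha cluster 4 of 4 lower and 2 called, and the beta cluster 16 of 17 lower and none called by edgeR, all among the members that passed, with medians of -1.28, -1.71 and -0.83. Members of the alpha and gamma clusters share their constant exons, at a median of 53.1% and 44.6% of exon bases, so their counts are not independent and a read from a shared exon may not be assigned to 1 member. The median over the 17 beta genes was 0.0%, with 1 of them sharing 6.9%. Of 11 protocadherins outside the clusters, 9 lay lower and none was called (1 at an unadjusted p under 0.05, 1 called by DESeq2).

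Pcdhgc5 (chromosome 18, 37819513 to 37841873), the gamma isoform with the smallest p, measured 28.5, 27.5, 25.9 and 19.5 CPM after bulbectomy. In the sham libraries it measured 65.9, 64.6, 84, 72 and 57.4 CPM, all above the highest bulbectomy value (-1.44 ± 0.18, edgeR adjusted p = 0.00288). Pcdhga5 measured 1.42, 1.42, 0.648 and 1.90 CPM against 10.8, 6.59, 9.57, 9.05 and 5.23 CPM, which is again without overlap (-2.59 ± 0.35, edgeR adjusted p = 0.00522). Pcdhac2 of the alpha cluster measured 2.73, 1.31, 2.59 and 2.37 CPM against 14.8, 5.66, 11.4, 13 and 6.46 CPM (-2.18 ± 0.35, edgeR adjusted p = 0.0115). Pcdhac1 was under 3 reads in all 4 bulbectomy libraries and lay at 0.563 to 2 CPM in the sham libraries, so its fold is not given. Pcdhgc3, whose constant isoform is found in many cell types, fell least of the 12 (-0.93 ± 0.19, edgeR adjusted p = 0.0311).

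**Figure D4:**
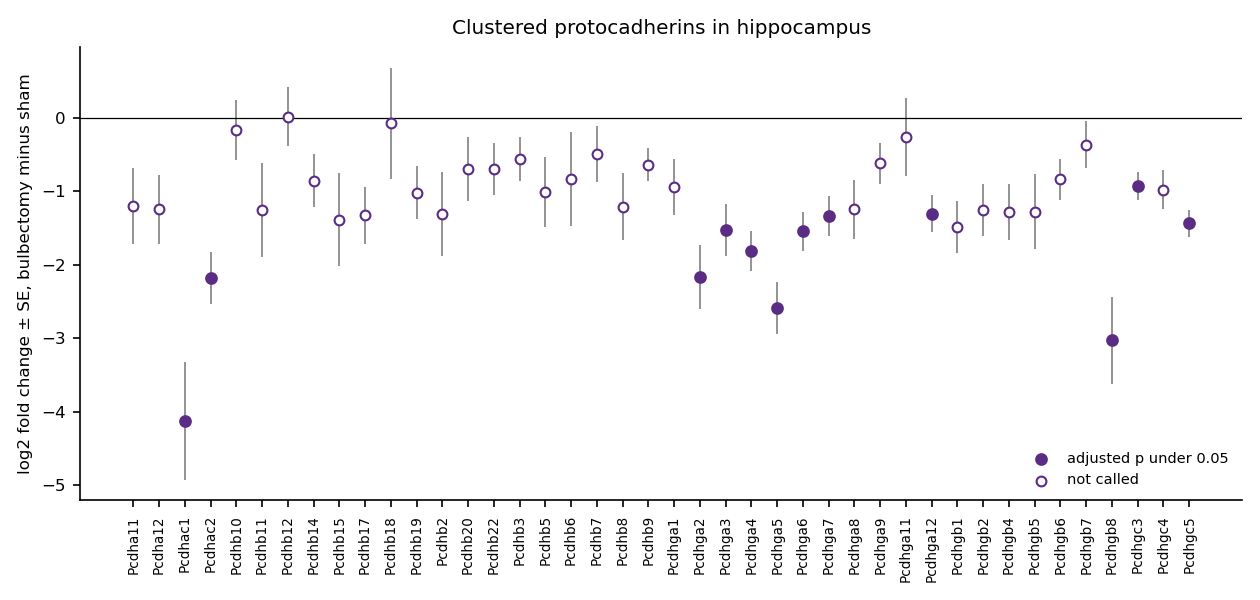
Log2 fold change with its standard error (y axis, bulbectomy minus sham) of the 42 measured clustered protocadherins (x axis, in order of the alpha, beta and gamma clusters), filled where called by edgeR. All but 1 lie below 0, and the 12 called genes belong to the alpha and gamma clusters, whose members share exons.

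Matrix and guidance genes were mostly lower where called. Sdc4, a transmembrane heparan sulfate proteoglycan, measured 80.2, 112, 120 and 94.1 CPM after bulbectomy against 21.1, 35.4, 35, 45.5 and 34.8 CPM, and it rose by 1.55 ± 0.20 with groups apart (edgeR adjusted p = 0.00475). Reln, the secreted protein that positions neurons and is made by interneurons in the adult hippocampus, measured 27.9, 43.3, 29.7 and 36.8 CPM against 56.8, 58.1, 73.1, 67.1 and 52.6 CPM. It fell by 0.84 on the log2 scale without overlap (edgeR adjusted p = 0.0364). Reln was the 1 gene called among 16 of interneurons (6.25%, against 1.55% of all genes tested), of which 12 lay lower. Ptprz1, a receptor phosphatase that carries chondroitin sulfate chains, lay at 34 to 40.9 CPM after bulbectomy and 63.6 to 144 CPM after sham, and fell (-1.40 ± 0.23, edgeR adjusted p = 0.0115). Sham 1 held its highest value. Slit3, a secreted repellent of axons, and Sema4c, a membrane semaphorin, fell by 1.19 and 1.21 on the log2 scale (edgeR adjusted p = 0.0338 and 0.0484). Of 65 axon guidance genes 37 lay lower, and edgeR called 2, both lower (3.08%, against 1.55% of all genes tested). DESeq2 called 8 lower and 1 higher, and edgeR called 4 lower without sham 1 and sham 2.

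Among genes of ion channels, calcium pumps and transmitter receptors, edgeR called at most 2 members of a list with all 9 libraries. Kcnf1, a modifier subunit of voltage-gated potassium channels, measured 16.1, 11.6, 14.4 and 17.6 CPM after bulbectomy and 36.5, 44.4, 33.4, 34.6 and 32.5 CPM after sham, with no overlap (-1.28 ± 0.18, edgeR adjusted p = 0.00655). Kcnip1, an auxiliary subunit of Kv4 channels, rose (0.89 ± 0.19, edgeR adjusted p = 0.0385). Kcnf1 and Kcnip1 were the 2 called of 40 voltage-gated potassium channel genes (5.0%, against 1.55% of all genes tested). Cacna1c, the pore subunit of the L-type calcium channel Cav1.2, lay at 10.4 to 13.7 CPM against 18.3 to 30.5 CPM and fell by 0.96 on the log2 scale (edgeR adjusted p = 0.0338). Of 16 voltage-gated calcium channel genes 12 lay lower and Cacna1c alone was called by edgeR (6.25%, against 1.55% of all genes tested).

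The plasma membrane calcium pumps Atp2b3 and Atp2b4, which move calcium out of the cell, both fell. Atp2b3 measured 34.2, 30.1, 34.1 and 27 CPM against 107, 39.8, 94.9, 112 and 71.4 CPM, with sham 2 closest to the bulbectomy libraries (-1.44 ± 0.26, edgeR adjusted p = 0.018). Atp2b4 measured 34.3 to 53 CPM against 59 to 94.3 CPM (-0.98 ± 0.18, edgeR adjusted p = 0.0244). They were the 2 called by edgeR of 21 genes of calcium pumps and release channels (9.52%, against 1.55% of all genes tested). Of the 21 genes 13 lay lower, and 11 had an unadjusted p under 0.05. DESeq2 called 7 lower, and edgeR called 3 lower without sham 1 and sham 2. Grik3, a kainate receptor subunit on the list of 24 glutamate receptor genes, fell by 1.5 on the log2 scale with all 9 libraries and by 1.04 without sham 1 and sham 2 (edgeR adjusted p = 0.0297 and 0.0382). It measured 36.8 and 32.2 CPM in those 2 libraries and 13.3 to 19.9 CPM in the other sham libraries. Of the 24 genes 15 lay lower, with a median of -0.27 over the glutamate receptors and -0.34 over 20 genes of GABA receptors and transporters, none of which was called (7 at an unadjusted p under 0.05, 3 called by DESeq2).

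Among 34 genes of cyclic AMP signalling edgeR called 3 lower and none higher (8.82%, against 1.55% of all genes tested in both directions), and DESeq2 called 8 lower and 1 higher. Adcy9, an adenylyl cyclase, measured 9.39, 13.3, 12.3 and 10.1 CPM after bulbectomy against 27.1, 18.4, 29.8, 36 and 24.3 CPM, with no overlap (-1.27 ± 0.22, edgeR adjusted p = 0.0137). Adcy3, the cyclase of olfactory neurons that also sits in neuronal primary cilia, fell by 0.83 on the log2 scale (edgeR adjusted p = 0.0354), with 22.1% of its exon bases overlapped on the opposite strand. Pde4d, a phosphodiesterase that breaks down cyclic AMP, lay at 3.32 to 6.29 CPM against 10.3 to 19.7 CPM (-1.60 ± 0.27, edgeR adjusted p = 0.0137). The list holds striatal genes such as Pde10a and Pde1b, and its median went from -0.46 with all 9 libraries to -0.17 without sham 1 and sham 2. The 3 called genes kept adjusted p-values of 0.00303, 0.0238 and 0.00929 by edgeR there.

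Dock3, an exchange factor that activates Rac1 in neurons, measured 31.1, 24.7, 27.1 and 31 CPM after bulbectomy and 109, 75.4, 79.3, 76.9 and 52.9 CPM after sham. The groups did not overlap (-1.46 ± 0.20, edgeR adjusted p = 0.00522). Dock3 was the 1 called of 11 DOCK factors (9.09%, against 1.55% of all genes tested), 9 of which lay lower with a median of -0.65. Dlgap2, a scaffold of the postsynaptic density, lay at 7.26 to 9.61 CPM against 16.1 to 37.9 CPM (-1.48 ± 0.25, edgeR adjusted p = 0.0137). It was the 1 called of 26 postsynaptic density genes (3.85%, against 1.55% of all genes tested), whose median was -0.06. No gene of 34 for synaptic vesicles and release was called by edgeR (8 at an unadjusted p under 0.05, 1 called by DESeq2).

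Among regulators of transcription and chromatin, 89 of 123 remodelers and histone modifiers lay lower, with a median of -0.25, while edgeR called 4 higher and 2 lower (4.88%, against 1.55% of all genes tested). DESeq2 called 7 higher and 12 lower, and edgeR called 3 higher and 6 lower without sham 1 and sham 2. Gse1, a coiled-coil protein found with histone demethylase complexes, measured 7.10, 6.17, 7.13 and 7.24 CPM after bulbectomy against 39.4, 15.6, 32.1, 31.4 and 20.9 CPM. The groups were apart (-2.0 ± 0.26, edgeR adjusted p = 0.00475), and 27.9% of its exon bases are overlapped on the opposite strand. Adnp, a chromatin-bound homeobox protein needed for brain development, was under 3 reads in every bulbectomy library and measured 1.43, 1.62, 2.93, 3.11 and 2.67 CPM in the sham libraries (edgeR adjusted p = 0.00655). Since 82.1% of its exon bases are shared with another gene on the same strand, this count may cover only part of its transcripts. Chd7, a chromatin remodeler of neural progenitors, measured 15.4, 15.5, 37.6 and 20.7 CPM against 6.87 to 11.7 CPM (1.34 ± 0.28, edgeR adjusted p = 0.0354), highest in bulbectomy 3. Phf20, Hdac4 and Kdm7a rose by 0.75, 0.93 and 1.03 on the log2 scale (edgeR adjusted p = 0.0374, 0.0403 and 0.0441). Without sham 1 and sham 2, Phf20 and Hdac4 missed the threshold, at 0.0534 and 0.0588. Exons of Hdac4 overlap a gene on the opposite strand over 22.4% of their bases.

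Several DNA-binding factors of neurons and glia rose. Nfia, a factor of glial differentiation, lay at 24.6 to 44.9 CPM against 10.8 to 16.3 CPM, and Foxn3, a forkhead repressor, at 27.2 to 53.9 CPM against 12.5 to 18 CPM (1.25 ± 0.20 and 1.41 ± 0.23, both with an edgeR adjusted p of 0.0115). Banp, a DNA-binding protein of unmethylated CpG promoters, measured 22.7, 31.1, 22.2 and 35.4 CPM against 11.4 to 14.3 CPM (1.14 ± 0.19, edgeR adjusted p = 0.012). Each of these had all bulbectomy values above all sham values. Sox9, a factor of astrocytes, rose by 1.17 ± 0.22 (edgeR adjusted p = 0.0239). It was the 1 gene called among 18 of astrocytes (5.56%, against 1.55% of all genes tested), whose median was 0.13. Zbtb20 and Pou3f1, both on the list of pyramidal cell genes, rose by 1.24 ± 0.27 and 0.86 ± 0.18 (edgeR adjusted p = 0.0384 and 0.0328), and Pou3f1 missed the threshold without sham 1 and sham 2 (0.0556). Sham 2, low for pyramidal genes as a whole, held the lowest Zbtb20 value, 17 CPM. Foxn3, Sox9 and Zbtb20 were highest in bulbectomy 3 and bulbectomy 4, at 50.1 and 53.9, 46.3 and 54.3, and 82.4 and 89.8 CPM. In bulbectomy 1 and bulbectomy 2 they measured 28.4 and 27.2, 27.5 and 30, and 46.1 and 51.1 CPM. Nfia had the same order, while Banp and Pou3f1 did not. Of 17 pyramidal cell genes 13 lay higher, and of 13 dentate granule cell genes 9 lay lower with none called by edgeR (4 at an unadjusted p under 0.05, 2 called by DESeq2).

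RNA-binding proteins gave calls in both directions. Nova2, a neuronal splicing regulator, measured 192, 229, 192 and 216 CPM against 102, 98.7, 159, 105 and 104 CPM, with sham 3 closest to the bulbectomy libraries (0.86 ± 0.17, edgeR adjusted p = 0.0284). Srsf2, a general splicing factor, lay at 17.9 to 19 CPM against 25.3 to 45.2 CPM (-0.86 ± 0.19, edgeR adjusted p = 0.0423, 0.0697 without sham 1 and sham 2). Both overlap a gene on the opposite strand, over 31.7% and 25.3% of their exon bases. Nova2 and Srsf2 were the 2 that edgeR called of 61 splicing and RNA-binding genes (3.28%, against 1.55% of all genes tested). DESeq2 called 4 higher and 3 lower, and without sham 1 and sham 2 edgeR called 3 higher and none lower.

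Glucocorticoids act through a nuclear receptor that binds DNA, and a set of genes known to be induced by it in many tissues was followed. Of 20 measured, 16 lay higher and 3 were called higher (15%, against 0.551% of all genes tested), with a median of 0.51 and of 0.46 without sham 1 and sham 2. DESeq2 called 6 higher. Without sham 1 and sham 2 edgeR called 2 higher and 1 lower, which was Zbtb16, a zinc finger repressor chosen after its values were seen (-1.24 ± 0.24, edgeR adjusted p = 0.0163, against -0.86 ± 0.37 and 0.218 with all 9). By library the mean log2 CPM was 4.91 to 5.33 after bulbectomy and 4.35 to 4.85 after sham, without overlap. Plin4, a lipid droplet coat protein, measured 18.2, 15.2, 15.7 and 18.6 CPM against 4.28, 5.89, 8.78, 9.48 and 7.49 CPM (1.2 ± 0.23, edgeR adjusted p = 0.0266). Nfkbia, the inhibitor of NF-kappa-B, measured 89.5, 81.6, 105 and 68.5 CPM against 41.6, 66, 37.7, 38.4 and 54.2 CPM (0.86 ± 0.20, edgeR adjusted p = 0.047). Tsc22d3, which encodes the leucine zipper protein GILZ, measured 44.3, 47.1, 28.4 and 48.8 CPM against 18.5 to 26.1 CPM (0.82 ± 0.19, edgeR adjusted p = 0.047, 0.0601 without sham 1 and sham 2). In all 3 genes no values overlapped, with bulbectomy 3 the lowest of its group for Tsc22d3. Cdkn1a and Mt1, which were not called, had log2 fold changes of 0.86 and 0.90 (edgeR adjusted p = 0.0852 and 0.0917). Ncoa2, a coactivator of this receptor, fell by 1.36 on the log2 scale (edgeR adjusted p = 0.0434), with its highest value, 48.8 CPM, in sham 1.

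A palindrome of the half-sites GNACA and TGTNC set 3 bases apart (N is any base), which reads the same on both strands and resembles the receptor's binding site, was searched in the RefSeq promoters (250 bases before to 50 after the start, GRCm38.p6). It was found for 4 of the 18 list members with a promoter sequence (22.2%) and 42 of 10632 such genes tested (0.395%). A gene counted if any of its promoters matched. Counted by single sequence, 156 of 32851 promoters in all held it (0.475%). The list was chosen as genes known to be induced through this receptor, so its share is a description only. None of the 53 genes called higher with a promoter sequence, or of the 99 called lower, held these letters there, and a match describes the letters only. The 4 matches are shown to let the half-sites be compared, with the palindrome in capitals and 20 bases on each side, 5′ to 3′ on the gene's strand.
Sgk1, chr10:21993682-21993734 (+): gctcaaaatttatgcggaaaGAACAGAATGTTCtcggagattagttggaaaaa
Fam107a, chr14:8309865-8309917 (-): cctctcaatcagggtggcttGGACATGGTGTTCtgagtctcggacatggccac
Map3k6, chr4:133240617-133240669 (+): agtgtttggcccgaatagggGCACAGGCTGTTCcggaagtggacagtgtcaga
Mt1, chr8:94178975-94179027 (+): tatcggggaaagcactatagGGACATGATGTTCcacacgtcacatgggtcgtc

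Most lists of energy metabolism and protein turnover had more genes higher than lower, with few calls. Of 76 nuclear-encoded subunits of the respiratory chain, 69 lay higher with a median of 0.35 both with and without sham 1 and sham 2. Atp5g1 was the 1 called (1.32%, against 1.55% of all genes tested). This subunit of the ATP synthase ring measured 153, 202, 153 and 171 CPM against 64.5, 102, 115, 80.8 and 98 CPM, without overlap (0.88 ± 0.18, edgeR adjusted p = 0.0332). The list's mean log2 CPM overlapped between groups, at 7.20 to 7.40 after bulbectomy and 6.33 to 7.26 after sham. Sham 1 and sham 4 were the lowest, at 6.33 and 6.55, while sham 2, sham 3 and sham 5 lay at 7.26, 7.13 and 7.06. The fit without sham 1 and sham 2 still held sham 4. Mitochondrial ribosomal proteins gave 68 of 76 higher with a median of 0.27. Mrps6 was the 1 called (0.93 ± 0.21, edgeR adjusted p = 0.047, 0.0519 without sham 1 and sham 2), again 1.32% of the list. It shares 19.9% of its exon bases with another gene on the same strand. Proteasome subunits lay higher for 34 of 37 with a median of 0.22, glycolysis genes for 14 of 17 with 0.31 and antioxidant genes for 24 of 30 with 0.27. None of these was called by edgeR, while 5, 6 and 9 had an unadjusted p under 0.05 and DESeq2 called 3, 2 and 5. Sham 1 and sham 4 were also the lowest libraries for these lists and for mitochondrial ribosomal proteins. The tricarboxylic acid cycle did not follow, with 8 of 18 genes higher and a median of -0.04 (-0.07 without sham 1 and sham 2). None of them was called by edgeR (4 at an unadjusted p under 0.05, 1 called by DESeq2, lower). Over all genes tested 7220 of 13985 lay higher.

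Of 83 cytosolic ribosomal protein genes 63 lay higher, while Rps3a1 was called lower (1.2%, against 1.0% of all genes tested). It measured 124, 105, 88.1 and 74.7 CPM against 286, 303, 97, 276 and 372 CPM, so sham 3 lay within the bulbectomy values (-1.44 ± 0.32, edgeR adjusted p = 0.0451, 0.168 without sham 1 and sham 2). Ribosomal protein genes have many near-identical pseudogene copies, so their counts are uncertain. Of 13 genes encoded in mitochondrial DNA 7 passed the filter, with a median of 0.48 with all 9 libraries and 0.80 without sham 1 and sham 2. None of the 7 was called by edgeR with all 9 (3 at an unadjusted p under 0.05, 1 called by DESeq2), and 5 were called higher without sham 1 and sham 2. mt-Nd4, a subunit of complex I, measured 6730, 6260, 9960 and 8210 CPM after bulbectomy and 3650 to 4280 CPM in 4 of the sham libraries, while sham 1 held 8750 CPM. It was called higher only in the fit without sham 1 and sham 2 (1.0, edgeR adjusted p = 0.0214, against 0.191 with all 9). Reads of mitochondrial genes made up 4.84% to 13.28% of a library, highest in sham 1.

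Genes of the medial habenula, a thalamic neighbour of the hippocampus that uses acetylcholine and neurokinin B, gave 4 of the genes that rose. Tac2, the precursor of neurokinin B, measured 29.3, 27.2, 18.8 and 18.5 CPM after bulbectomy against 5.13, 9.94, 4.84, 3.42 and 3.59 CPM (2.15 ± 0.31, edgeR adjusted p = 0.00655). Gng8, a G protein gamma subunit, measured 10.2, 6.76, 8.30 and 5.70 CPM against 1.14, 0.462, 2.14, 0.866 and 1.74 CPM (2.64 ± 0.39, edgeR adjusted p = 0.00655). Chrnb4, the beta 4 nicotinic receptor subunit, measured 6.44, 3.56, 4.54 and 4.99 CPM against 0.570, 0.693, 1.01, 1.07 and 0.308 CPM (2.63 ± 0.39, edgeR adjusted p = 0.00655). No values overlapped in any of these genes. Gpr151, an orphan receptor of habenula neurons, measured 8.96, 5.10, 2.72 and 2.37 CPM, and 0 to 0.563 CPM in the sham libraries, where sham 1 had no read (3.55 ± 0.53, edgeR adjusted p = 0.0066).

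Only 9 of the 15 habenula genes passed the filter on low counts, which a gene at the floor in the sham libraries passes through its bulbectomy values. The list's count and median are therefore no measure of its own. Over all 15 genes, with no filter, the mean log2 CPM was 1.81, 1.48, 1.46 and 1.48 in bulbectomy 1 to 4 and 0.81, 0.68, 0.84, 0.52 and 0.49 in sham 1 to 5, so the groups did not overlap. Pou4f1, the transcription factor of medial habenula neurons, measured 1.63, 1.78, 1.03 and 1.18 CPM after bulbectomy and was at 0 in 4 sham libraries, with 0.0174 CPM in sham 4, the deepest. It did not pass the filter with all 9 libraries and was called higher without sham 1 and sham 2 (edgeR adjusted p = 0.00197). Chrna3, the partner subunit of Chrnb4, measured 5.79 CPM in bulbectomy 1 and 1.54 to 1.90 CPM in the other 3, against 0 to 1.13 CPM after sham, and was not called (edgeR adjusted p = 0.0859). Slc18a3, the vesicular acetylcholine transporter, measured 3.32 to 6.55 CPM after bulbectomy and 0.113 to 0.494 CPM in sham 3 to 5, but 13.1 and 12.5 CPM in sham 1 and sham 2. Striatal interneurons also use this transporter. It was called without those 2 libraries (3.60, edgeR adjusted p = 0.00294) and not with them (-0.17, 0.952).

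Other neighbouring structures were followed by their markers. Thalamic genes lay higher for 17 of 18, with a mean log2 CPM of 4.04 to 4.85 after bulbectomy and 2.54 to 4.36 after sham. Rora, a nuclear receptor of thalamic neurons that astrocytes also express, measured 32.2, 23, 65.8 and 57.3 CPM against 10.6 to 17 CPM and was the 1 called (1.71 ± 0.29, edgeR adjusted p = 0.0137, 0.0657 without sham 1 and sham 2). That call is 5.56% of the thalamic list, against 1.55% of all genes tested. Tcf7l2, the defining factor of thalamus and habenula, measured 56.6, 30.5, 57.3 and 61.1 CPM against 15.7, 3.35, 20.8, 6.33 and 20.3 CPM, with no overlap, and was not called (1.97 ± 0.49, edgeR adjusted p = 0.0773). The 7 ependymal genes that passed the filter lay higher with none called by edgeR or DESeq2 (3 at an unadjusted p under 0.05), and the mean log2 CPM of all 8 on the list, with no filter, was 2.42 to 2.81 against 1.91 to 2.37 by library, again without overlap. Choroid plexus genes varied more within groups than between them, at 2.80 to 4.03 after bulbectomy and 1.45 to 4.44 after sham. Ttr, their most abundant transcript, measured 203 to 1220 CPM and 27.3 to 774 CPM. The part of tissue composition in the calls of Tac2, Gng8, Chrnb4, Gpr151 and Rora was not tested.

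Gm5741, a predicted gene on chromosome 8, measured 5.24, 3.08, 4.28 and 2.61 CPM after bulbectomy. It was at 0 in 4 sham libraries and at 0.029 CPM in sham 4, so no fold is given (edgeR adjusted p = 8.75e-05). Irx2, a homeobox factor, measured 1.43 to 2.73 CPM against 0.267 to 0.563 CPM (2.44 ± 0.45, edgeR adjusted p = 0.0201).

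Glial and immune genes gave few calls. None of 18 microglial genes, 17 disease-associated microglia genes, 15 reactive astrocyte genes, 27 interferon genes or 14 genes of MHC class I and antigen processing was called by edgeR. Those with an unadjusted p under 0.05 numbered 1, 1, 3, 1 and 2, and DESeq2 called 0, 1, 1, 0 and 1. Irf9, a transcription factor of the interferon response, measured 68.3, 53.7, 185 and 69.3 CPM after bulbectomy and 41.4 to 79.7 CPM after sham. Lgals3, a galectin of activated microglia, measured 62.3 CPM in bulbectomy 3 and 3.42 to 14.2 CPM in the other 8 libraries. Bulbectomy 3 thus stood alone for both, and the groups otherwise overlapped. Without it, the median of the interferon list went from 0.42 to -0.73, of MHC class I from 0.60 to -0.15 and of reactive astrocytes from 0.59 to -0.2. Gfap, the astrocyte filament protein, measured 1730, 4000, 4000 and 1500 CPM against 1190, 1370, 1400, 1550 and 2730 CPM and was not called (0.77 ± 0.33, edgeR adjusted p = 0.225). Myelin genes lay higher for 12 of 18 with none called by edgeR or DESeq2 (2 at an unadjusted p under 0.05).

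**Figure D5:**
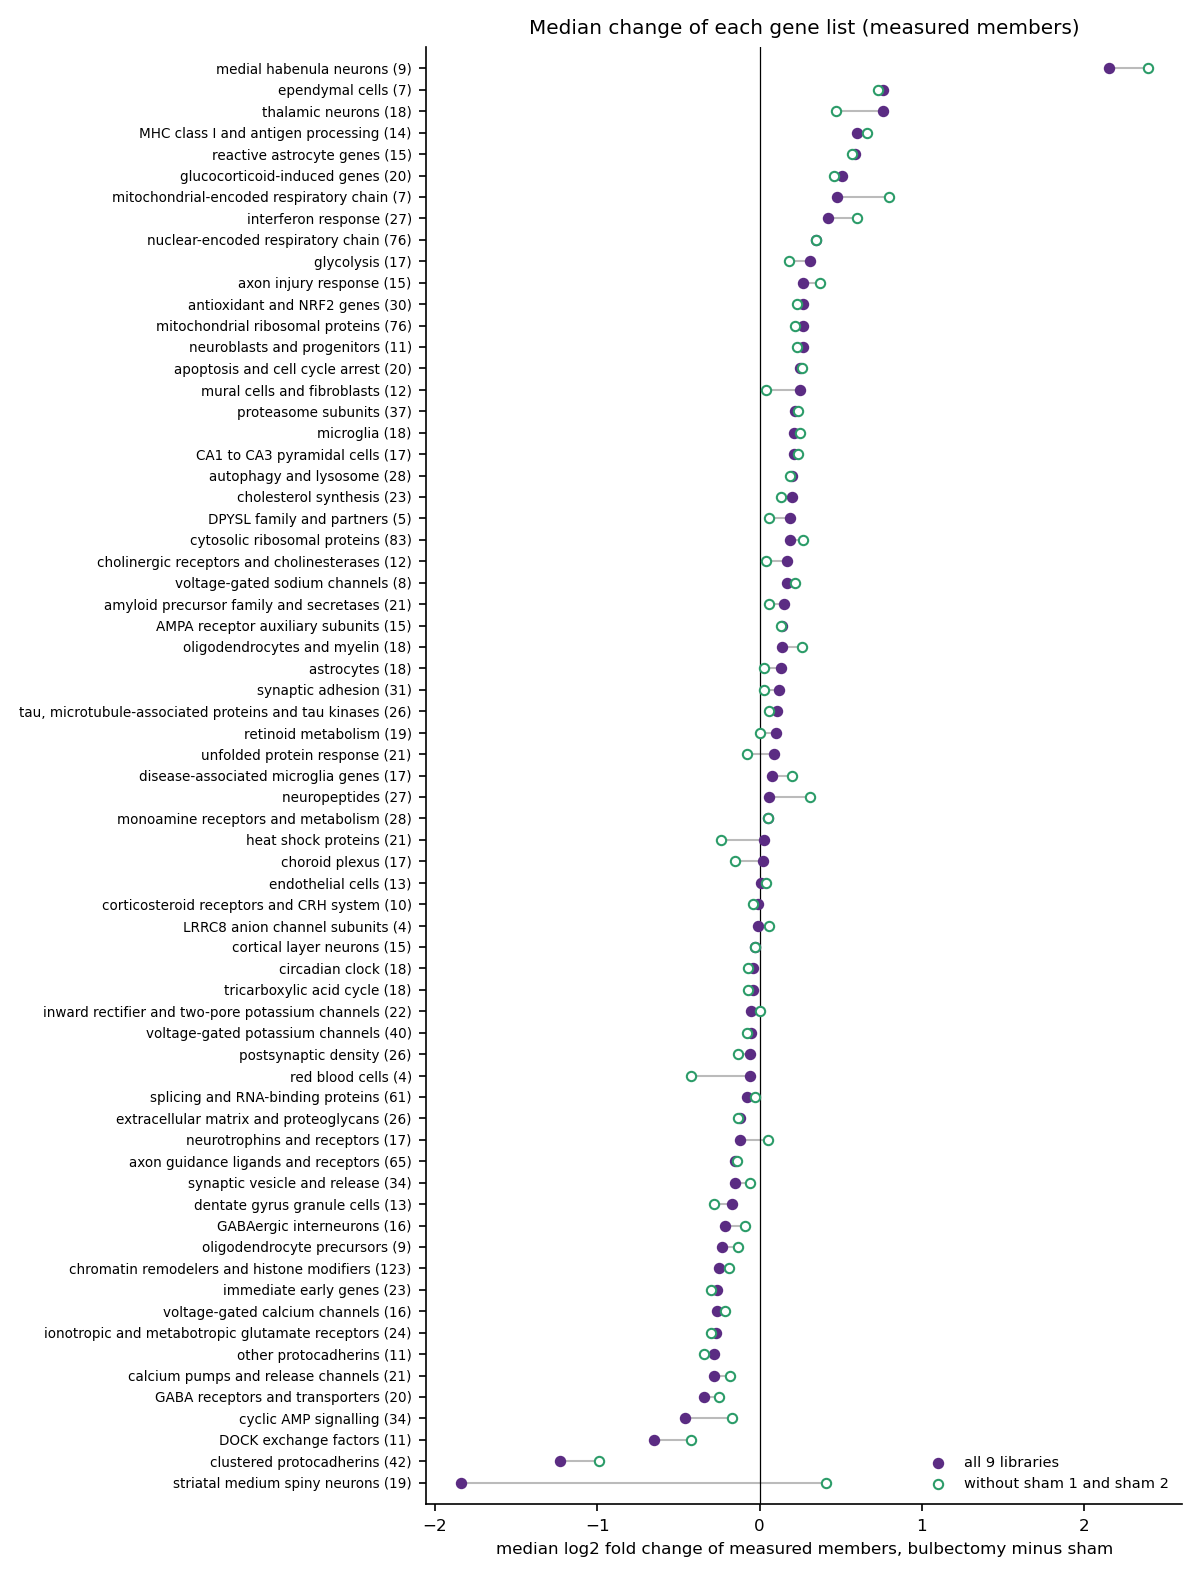
Median log2 fold change of the measured members of each of the 67 gene lists (x axis, bulbectomy minus sham), with all 9 libraries as filled points and without sham 1 and sham 2 as open points. Clustered protocadherins lie below 0 in both (-1.23 and -0.99), glucocorticoid-induced genes above 0 in both (0.51 and 0.46), and striatal genes move from -1.84 to 0.41.

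Activity-dependent genes lay lower for 15 of 23 with none called by edgeR (5 at an unadjusted p under 0.05, 4 called by DESeq2). Egr3, an early growth response factor, measured 26.6, 18.4, 11.9 and 27.2 CPM against 61.3, 48.9, 42.6, 42.9 and 28.1 CPM, without overlap (-1.08 ± 0.27, edgeR adjusted p = 0.0559). Junb, a subunit of the AP-1 factor, measured 24 to 40.7 CPM against 49.6 to 66.3 CPM, also without overlap (-0.73 ± 0.18, edgeR adjusted p = 0.0597). Npas4, induced by calcium entry in active neurons, measured 1.54 to 3.32 CPM after bulbectomy and 6.08 to 9.85 CPM in sham 2 to 5, while sham 1, the shallowest library, held 1.14 CPM. It was called lower without sham 1 and sham 2 (-1.75, edgeR adjusted p = 0.0138) and not with all 9 (-1.58, 0.0845).

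Genes linked to Alzheimer's disease gave 1 call. Apba1, an adaptor that binds the amyloid precursor protein, measured 94.6, 113, 119 and 145 CPM against 54.7 to 84.2 CPM (0.78 ± 0.18, edgeR adjusted p = 0.0434, 0.0543 without sham 1 and sham 2). It was the 1 called of 21 genes of the amyloid precursor family and its processing (4.76%, against 1.55% of all genes tested), whose median was 0.15. None of 26 genes of tau, other microtubule-associated proteins and tau kinases was called by edgeR (4 at an unadjusted p under 0.05, 1 called by DESeq2). Of 12 cholinergic genes Chrnb4 was called (8.33%), and of 27 neuropeptides Tac2 (3.7%), against 1.55% of all genes tested.

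The remaining genes of smallest p belong to varied functions. Inafm2, a small membrane protein, measured 41.2, 40.6, 39.9 and 43.3 CPM against 12 to 20.8 CPM (1.30 ± 0.19, edgeR adjusted p = 0.00655). Dhrs3, which reduces retinal, lay at 42.9 to 56.9 CPM against 19.1 to 27.8 CPM (1.17 ± 0.17, edgeR adjusted p = 0.00655). It was the 1 called of 19 retinoid genes (5.26%, against 1.55% of all genes tested). Zmat3, an RNA-binding target of p53, lay at 65.6 to 81.7 CPM against 28.8 to 45.9 CPM (1.02 ± 0.16, edgeR adjusted p = 0.0114). Mllt6, known as a fusion partner in leukaemia, and Neurl1b, a ubiquitin ligase of Notch ligands, rose by 1.31 ± 0.22 and 1.42 ± 0.23. In each of these 5 genes every bulbectomy library exceeded every sham library.

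Among the genes that fell, Prepl, a serine peptidase-like enzyme, measured 114, 88, 71.7 and 79.5 CPM against 237, 173, 279, 241 and 222 CPM (-1.38 ± 0.19, edgeR adjusted p = 0.00522). Pdxk, which makes the active form of vitamin B6, lay at 22.2 to 32.4 CPM against 48.9 to 68.7 CPM (-1.17 ± 0.17, edgeR adjusted p = 0.00655), with 39.0% of its exon bases overlapped on the opposite strand. Gda, the guanine deaminase, lay at 18.4 to 28.4 CPM against 43.6 to 70.2 CPM (-1.33 ± 0.20, edgeR adjusted p = 0.0066). Usp33, a deubiquitinase that acts on the Slit receptor Robo1, measured 4.81, 3.92, 3.11 and 4.27 CPM against 34.5, 7.97, 19.3, 22.8 and 17.8 CPM (-2.33 ± 0.35, edgeR adjusted p = 0.0066). Its exons overlap a gene on the opposite strand over 24.4% of their bases. Mta3, a subunit of the NuRD repressor complex, and Arhgap32, a GTPase-activating protein of neurons, fell by 1.24 and 1.72 on the log2 scale (edgeR adjusted p = 0.0106 and 0.0136). Groups did not overlap in any of these 6 genes, and sham 1 held the highest value for Usp33 and for Arhgap32, 201 CPM.

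Genes called only without sham 1 and sham 2 included genes of transmitter systems. Th, tyrosine hydroxylase, measured 3.44 to 5.02 CPM after bulbectomy and 0.338 to 0.923 CPM in sham 3 to 5, with 2.85 and 6.01 CPM in sham 1 and sham 2 (2.64, edgeR adjusted p = 0.00743, against 0.433 with all 9). Dgkg, a diacylglycerol kinase, measured 29.8 to 33.1 CPM after bulbectomy and 69.4 to 104 CPM in the sham libraries apart from sham 2, which held 25.4 CPM (-1.45, edgeR adjusted p = 0.000781, against 0.0629). Gabrb2, the beta 2 subunit of the GABA-A receptor, measured 1.17 to 2.49 CPM against 5.13 to 11.3 CPM, again apart from sham 2 with 2.31 CPM (-2.02, edgeR adjusted p = 0.00929, against 0.0597). Myo5a, a motor that carries cargo into spines, and Cnksr2, a postsynaptic scaffold, showed the same order, with sham 2 at 35.9 and 32.6 CPM within the bulbectomy range (-1.18 and -1.14, edgeR adjusted p = 0.00929 and 0.0093). For these last 4 genes sham 2 was the sham library nearest to the bulbectomy libraries.

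The response was set beside those of cortex (3 bulbectomy and 5 sham libraries) and cerebellum (2 and 5), each measured against its own sham libraries. These regions thus rest on few bulbectomy libraries, and whether the regions came from the same mice is not in the labels. Deviations from the group means were correlated at 0.25 to 0.439 between same-numbered sham libraries of hippocampus and cerebellum (5 pairs, against -0.473 to 0.373 for other numbers), and at 0.1 and 0.127 for 2 bulbectomy pairs. With 2 cerebellum bulbectomy libraries the deviations mirror each other, so the crossed pairs gave -0.1 and -0.127 by construction and are no separate comparison. Between hippocampus and cortex the deviations were correlated at -0.104 to 0.454 (5 sham pairs, 4 of them over 0.1) and -0.068 to 0.211 (3 bulbectomy pairs, 2 over 0.1). No gene of 16564 passed the test of a difference between the hippocampus and cortex responses (edgeR's interaction contrast, smallest adjusted p = 0.159, 466 genes at an unadjusted p under 0.05, 3 called by DESeq2). The same test against cerebellum gave no call (smallest adjusted p = 0.0709, 511 genes at an unadjusted p under 0.05, 2 called by DESeq2). Genes called higher in hippocampus lay higher in cortex for 74 of 77 and in cerebellum for 63 of 77, with medians of 0.59 and 0.43. Genes called lower lay lower for 139 and 138 of 140, with medians of -0.53 and -0.78. Of all genes tested in hippocampus, 72.5% had the same direction in cortex and 67.7% in cerebellum.

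Lrrc8a had log2 fold changes of 1.24 ± 0.24 in cortex and 1.63 ± 0.26 in cerebellum, and Dpysl2 of 1.33 ± 0.33 and 1.87 ± 0.36, beside 2.19 and 2.38 in hippocampus. Cbln1 was at 0.06 in both of the other regions, and Chrnb4 at -1.43 in cortex and -0.37 in cerebellum. The difference for Chrnb4 was 4.03 ± 0.79 against cortex (edgeR adjusted p = 0.19) and 2.98 ± 0.73 against cerebellum (0.901). Ecel1, an endopeptidase-like protein of neurons, had the smallest p against cortex, at -0.15 ± 0.41 in hippocampus and 3.06 ± 0.42 in cortex (edgeR adjusted p = 0.159), and Gm5741 the smallest against cerebellum (0.0709). These differences did not pass the threshold over all genes, which does not show that the regions responded alike.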

How the data were processed

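RNA-seq of polyA RNA was analysed for 9 hippocampus libraries, with 15 cortex and cerebellum libraries for the interaction contrasts. The deposited files hold raw counts of reads per Ensembl gene (55487 identifiers and 12 totals rows, left out of library sizes), made by the authors with Trimmomatic, STAR and featureCounts on mm10, per the submitters' processing notes. No version, annotation or strand setting is given in the sources used here, so genes sharing exon bases are uncertain. Symbols (55141) and coordinates came from GENCODE M21.

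After filterByExpr and TMM scaling, bulbectomy was compared with sham by edgeR's robust quasi-likelihood test (edgeR 4.0.16, limma 3.58.1, R 4.3.3), with Benjamini-Hochberg adjustment over all genes, two-sided, called at an adjusted p under 0.05. List levels are mean log2 of CPM plus 0.5. The biological coefficient of variation was 0.297. In simulated counts for this comparison (13787 genes), 46% of 100 genes changed by 1 on the log2 scale and 98% of 100 changed by 2 were recovered, with 7 unchanged genes called. The changed genes were drawn from those with an average log2 CPM above 2, so these shares do not cover genes of lower level. Differences between libraries of a group in tissue content were not simulated. Replicate numbers came from the titles.

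Named genes were the 20 of smallest p per direction without predicted names, called members of 67 gene lists or the 3 of smallest p where none was called, the 10 of smallest p per direction called with and only without sham 1 and sham 2, the 10 of smallest p in each interaction contrast, and defining markers. Members and lists were chosen with earlier results of these data known. Results for 2 of these genes are left out here. Irx2 and Gm5741 were named for their interaction contrasts. Alternatives were DESeq2 1.42.0, voom weights, other scalings and filters, a fold threshold of 1.2, a non-robust fit, a replicate block, sham 4 thinned, a length and GC trend, all 24 libraries in 1 fit, and libraries left out. P-values and depth limits cover the spread and counting error of these libraries only.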

Additional observations from a re-analysis of the deposited data

Results flagged for a closer look

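In 38 of 398 groups tested (9.5%), the highest or lowest library lay far from the rest of its group by Dixon's limits for 4 and 5 samples, and chance alone gives about 1 in 20. Bulbectomy 3 was the library in 9 of them, sham 2 in 8 and sham 1 in 6.

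Bulbectomy 3 stood high for the immune genes Irf9 (185 CPM), Psme1 (426 CPM) and Lgals3 (62.3 CPM). It also stood high for the levels of interferon genes (5.47), MHC class I genes (8.46) and disease-associated microglia genes (5.81), in mean log2 CPM. Pcdhga7 (5.97 CPM) and Pcdhga12 (4.41 CPM) were highest there within the group, and Aff4 lowest (17.4 CPM). Bulbectomy 1 stood high for the cholinergic genes Chrna3 (5.79 CPM) and Slc18a3 (6.55 CPM) and low for matrix genes (4.58). Bulbectomy 2 was low for Tcf7l2 (30.5 CPM) and Gse1 (6.17 CPM), and bulbectomy 4 high for mural cell genes (4.36) and axon guidance genes (4.29).

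Sham 2 was the lowest sham library for dentate granule cell genes (2.82), pyramidal cell genes (5.46), axon guidance genes (4.03) and heat shock genes (5.58). It was the highest for Tac2 (9.94 CPM), Mir124-2hg (22.7 CPM), Srsf11 (50.3 CPM) and Gm38534 (0.922 CPM). Sham 1 was highest for Arhgap32 (201 CPM), Cfap126 (9.13 CPM), mt-Nd4 (8750 CPM), neurotrophin genes (4.53) and the share of mitochondrial reads (13.3%), and lowest for Tsc22d3 (18.5 CPM). Sham 3 was highest for Nova2 (159 CPM), Pou3f1 (116 CPM), habenula genes (1.68) and inward rectifier potassium channel genes (3.88). Sham 4, with 138963332 assigned reads, was the one sham library with reads of Pou4f1 (0.0174 CPM) and Gm5741 (0.029 CPM). Sham 5 was highest for Gfap (2730 CPM).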

How the results depend on the processing

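Against 77 genes called higher and 140 lower, DESeq2 called 356 and 559, voom with sample weights 128 and 179, the fold threshold of 1.2 24 and 40, the length and GC trend 232 and 241, and leaving out sham 1 and sham 2 118 and 230. The replicate block called 34 and 111, and the same libraries without the block 75 and 224. Same-numbered bulbectomy and sham libraries deviated together by 0.032, -0.111, -0.365 and -0.129 (correlations), and libraries of unlike number by -0.258 to 0.359. The labels do not say what the numbers mark, and these few correlations cannot settle whether they pair the libraries. One library left out gave 15 to 138 higher and 15 to 339 lower, and 1 more left out beside sham 1 and sham 2 gave 32 to 73 and 70 to 263. The other alternatives stayed within 1.5 times. The interaction with cortex gave 3 calls by DESeq2 and 0 to 1 with a library left out, and that with cerebellum 2 and 0 to 2, and the replicate block gave 0 in both. Of 1851 alternative values of the 81 named genes called, 1475 kept the call, 376 lost it and 0 reversed. The median of all genes moved by under 0.1 in every alternative.

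Reversed values were as follows, and the cause was not tested. Without sham 1 and sham 2, Drd1 was 0.58, Ppp1r1b 0.49, Prkcd -0.10, striatal genes 0.41, heat shock -0.24, unfolded protein response -0.08 and neurotrophins 0.05, while Slc18a3 was -0.17 with all 9 libraries. With the length and GC trend removed, Prox1 was 0.21, LRRC8 subunits 0.26, heat shock -0.14, unfolded protein response -0.10, neurotrophins 0.07 and retinoid genes -0.09. With voom, Prox1 was 0.22, heat shock -0.16 and neurotrophins 0.06. Synaptic adhesion was -0.02 with the replicate block and -0.03 on the same libraries without it.

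With 1 library left out, the lowest values of these came without bulbectomy 3: Lgals3 ranged from -0.09 to 1.99, microglia from -0.24 to 0.32, reactive astrocytes from -0.2 to 0.8, interferon from -0.73 to 0.72, MHC class I from -0.15 to 0.8, unfolded protein response from -0.06 to 0.14, apoptosis from -0.09 to 0.39 and axon injury from -0.03 to 0.41. Those of other libraries were Prox1 from -0.43 to 0.04, heat shock from -0.11 to 0, endothelial genes from -0.15 to 0.09, inward rectifiers from -0.2 to 0.05 and synaptic adhesion from -0.03 to 0.16.

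Depth limits genes under about 1 CPM in sham 1, where 3 reads equal 0.921 CPM.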

Other observations

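Markers of immature neurons lay higher for 9 of 11 genes, with a median log2 fold change of 0.27 and none called by edgeR (4 at an unadjusted p under 0.05, 2 called by DESeq2). Sox4, a factor of newborn neurons, measured 17.9, 18.7, 26.6 and 34 CPM after bulbectomy against 14.8, 17.3, 10.4, 12 and 12.7 CPM, without overlap (0.86 ± 0.23, edgeR adjusted p = 0.0694, 0.0345 without sham 1 and sham 2). Its exons overlap a gene on the opposite strand over 54.6% of their bases. Genes of oligodendrocyte precursors lay lower for 7 of 9, with a median of -0.23 and none called by edgeR (2 at an unadjusted p under 0.05, 1 called by DESeq2). Pdgfra, their growth factor receptor, measured 10.3 to 15.1 CPM against 11.9 to 40.8 CPM, with sham 2 the lowest sham library (-1.02 ± 0.29, edgeR adjusted p = 0.0881, 0.0214 without sham 1 and sham 2).

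Heat shock genes split by member. Hspb1, a small chaperone, measured 17 to 29.2 CPM against 5.33 to 14.6 CPM (1.23 ± 0.29, edgeR adjusted p = 0.0535), while Hsph1, a large chaperone, measured 103 to 134 CPM against 126 to 337 CPM (-0.9 ± 0.25, edgeR adjusted p = 0.0755, 0.0294 without sham 1 and sham 2). Of 28 genes of autophagy and lysosomes 16 lay higher, of 23 of cholesterol synthesis 15, of 18 of the circadian clock 7 and of 28 of monoamine signalling 15. None of these was called by edgeR, while 11, 4, 4 and 6 had an unadjusted p under 0.05 and DESeq2 called 2, 1, 2 and 1.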
